A study of Mus musculus with 40 samples.

Results

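The scar of the infarcted mouse heart was compared between day 21 and day 14 after the left anterior descending coronary artery had been tied off for good. The day 21 group held the injured regions of 4 mice, labelled A3, A4, A10 and A11, and the day 14 group those of 4 other mice, labelled A4, A5, A6 and A11. A label that recurs on both days names a different animal. The 8 libraries were taken, by their labels, from 40 libraries of 20 adult C57BL/6 mice, an inbred laboratory strain, killed 3, 7, 14, 21 or 42 days after the ligation. Every mouse in the study had been ligated, so no group stands for an unoperated heart. Each heart gave 1 library of total RNA from the fibrotic scar and 1 from uninjured muscle remote from it, made with a TruSeq kit, and the exact ages and sexes of the animals are not given in the labels. The values are RPKM, read numbers corrected for library depth and for how long each gene is, and all differences are on the log2(RPKM + 1) scale, which understates the change of low genes. Of 11450 genes, the 11390 with at least 1 RPKM in 4 or more of the 40 libraries were tested.

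After a coronary artery is blocked, dead muscle is cleared by inflammatory cells and replaced by matrix that fibroblasts secrete. Fibrillar collagens form the load-bearing fibres of that matrix, chaperones and hydroxylases fold their chains, and lysyl oxidases tie the fibres together. As a scar matures, contractile and secretory fibroblast activity gives way to a quieter state, and proteoglycans and cartilage-like matrix proteins that organise collagen fibres become prominent.

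The 8 libraries carried the tissue signature that their labels name. Col1a1, a chain of type I collagen, was at 318 to 620.3 RPKM in the scar and 8.98 to 33.8 RPKM in the remote regions of the same mice. Scar tissue still held muscle RNA, since Myh6, the main adult cardiac myosin, was at 351 to 705 RPKM there and at 4110.0 to 5297 RPKM in the remote regions. Whole reads worked back from the RPKM summed to between 19112392 and 25091283 per scar library. On the second principal component of the 20 scar libraries, which held 17.8% of the variance, day 21 mouse A4 and day 14 mouse A4 lay apart from the others of their days, at -6.06 and -11.3 against 0.36 to 7.77. The groups also differed in the mix of mice with Xist, a transcript of the inactive X chromosome, which was at 70.4 to 85.1 RPKM in 2 of 4 mice at day 21 and 3 of 4 at day 14 and at most 0.118 RPKM in the others. In bulk tissue, fewer cells of a type and less RNA per cell cannot be told apart, and this holds for every gene below.

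No gene passed the test of change between day 21 and day 14 in the scar. In limma's fit of all 20 scar libraries, 0 of 11390 genes (0%) had an adjusted p under 0.05, with a smallest value of 0.0783, and 1496 (13.1%) had an unadjusted p under 0.05. The count-based test limma-voom on the recovered reads also called 0 genes, with a smallest adjusted p of 0.0611 and 1596 genes at an unadjusted p under 0.05. Since a missing call does not show that a gene stayed level, each change was also tested against a margin, by one-sided tests at both ends. A change of less than 2-fold was established for 11302 genes (99.2%) and a change of less than 1.5-fold for 10866 (95.4%), at an adjusted p under 0.05. By voom on the recovered reads, 11111 and 10157 of the 11390 genes met these bounds. Among the 6550 genes with a mean of at least 5 RPKM, the added 1 matters less but still shrinks a change. For these the main fit gave 6493 (99.1%) within 2-fold and 6199 (94.6%) within 1.5-fold. The median size of a log2 change was 0.088, and the median 95% interval reached 0.18 to either side, a factor of 1.14. At the 90th percentile of genes the interval reached 0.33, a factor of 1.25.

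The same fit, with 4 mice on each day, gave many calls for every other step between sampled days (the plot of percent changed and percent bounded). The median standard error of 0.088 is the same for all 4 steps by construction, since each gene has 1 variance over all days. It therefore does not compare the precision of the steps. From day 3 to day 7, 6880 genes (60.4%) changed, from day 7 to day 14 it was 4912 (43.1%), and from day 21 to day 42 it was 2825 (24.8%). The share bounded within 1.5-fold was 63.1%, 75%, 95.4% and 87.4% over the 4 steps in time order. The median size of the log2 change was 0.28, 0.18, 0.088 and 0.15, and its 90th percentile was 0.87, 0.70, 0.23 and 0.40. The steps are of unequal length and neighbouring steps share the libraries of a day, so they were not tested against each other. All day 42 mice carry B labels, and the mice of the other days A labels. In the last step, day and label series therefore cannot be told apart. In the remote region, day 21 minus day 14 gave 1 called gene (0.00878%), 573 genes (5.03%) at an unadjusted p under 0.05 and 10929 (96%) bounded within 1.5-fold. The count of called genes in the scar rested on single libraries. Without day 14 mouse A5, 21 genes were higher and 4 lower at day 21. Without day 21 mouse A11 1 gene was higher, and without day 21 mouse A4 1 was lower.

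**Figure D1:**
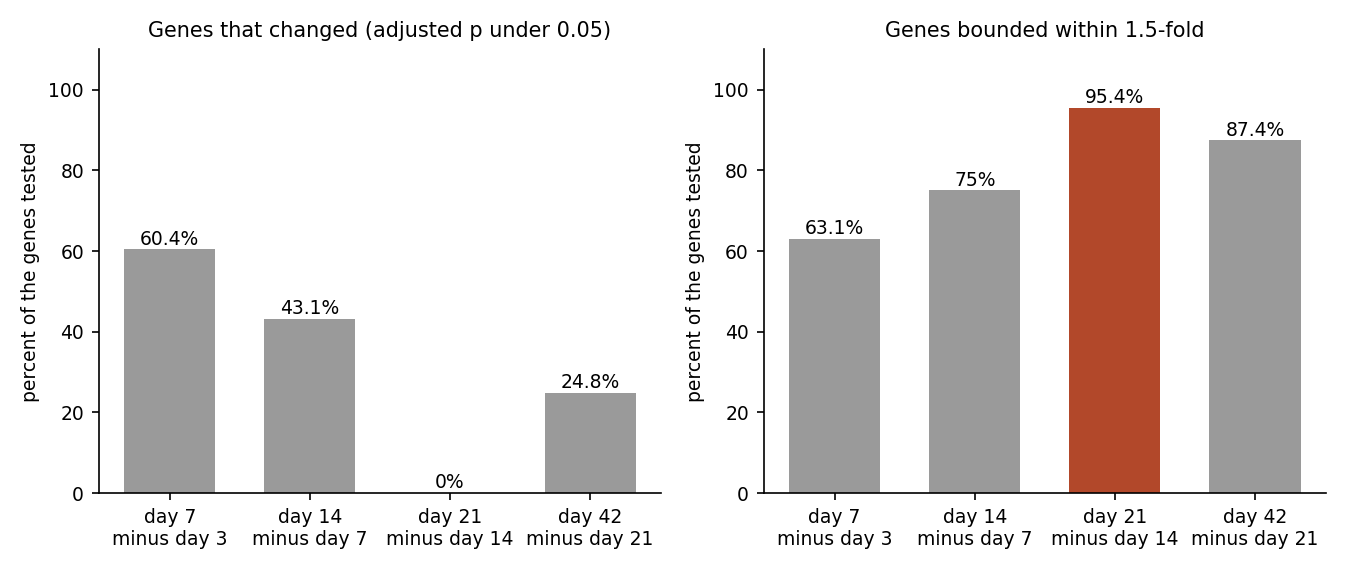
Percent of the 11390 genes tested that changed (left, limma adjusted p under 0.05) and that were bounded within 1.5-fold (right) for the 4 steps between sampled days in the scar, 4 mice per day. The step from day 14 to day 21 has 0% changed and 95.4% bounded.

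The abundant transcripts were bounded least often. Of 204 genes with a mean of at least 100 RPKM, 191 were within 2-fold and 137 (67.2%) within 1.5-fold, with a median half-width of the interval of 0.33. The share within 1.5-fold was 92.7% at 20 to 100 RPKM and 96.3% at 5 to 20 RPKM. Single abundant genes were still held tightly. Lamp1, a lysosomal membrane glycoprotein (chr8:13159161-13175338, here and below in the GENCODE M21 annotation of mm10), had 164, 162, 152 and 174 RPKM at day 21, against 169, 159.6, 170.5 and 168 RPKM at day 14. Its log2 change was -0.033 ± 0.08, with a 95% interval of -0.20 to 0.14. Laptm4a, a lysosomal transmembrane protein, had 126, 128, 129.9 and 133 RPKM at day 21, against 134, 131, 137 and 145 RPKM at day 14. Ctnnb1, which encodes beta-catenin, had a 95% interval of -0.20 to 0.17.

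None of the genes nearest to a call passed. Prelp, a leucine-rich proteoglycan that anchors basement membranes to collagen (chr1:133910304-133921414), had 164, 186, 157 and 113 RPKM at day 21, against 83.5, 97.7, 73.1 and 71.2 RPKM at day 14, in the order of mice given above. All 4 day 21 mice lay above all 4 day 14 mice, and the means were 155 ± 30.9 RPKM at day 21 and 81.4 ± 12.1 RPKM at day 14 (SD, n = 4 each). Its log2 change of 0.91 ± 0.16 had a 95% interval of 0.58 to 1.24 and a limma adjusted p of 0.0783. Over days 3, 7, 14, 21 and 42 its means were 3.48, 26.3, 81.4, 155 and 112 RPKM. Non-overlap of the 2 groups alone was common, at 424 genes (3.72%) higher and 312 (2.74%) lower at day 21. Cthrc1, which activated fibroblasts secrete (chr15:39076932-39087121), was the mirror case, with 39.04, 43.03, 36.96 and 29.6 RPKM at day 21, against 80.6, 70.8, 63.6 and 68.6 RPKM at day 14. Its log2 change was -0.92 ± 0.16, with an interval of -1.26 to -0.58 and a limma adjusted p of 0.0783. Its means over the 5 days were 53.4, 232, 70.9, 37.1 and 24.2 RPKM, with the peak at day 7.

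Some of the genes with the smallest p were nonetheless bounded tightly, with little spread between mice. Parp3, a poly(ADP-ribose) polymerase active in DNA repair, had 18.6, 17.6, 18.98 and 19.3 RPKM at day 21, against 14.8, 15.4, 15.4 and 14.5 RPKM at day 14. Zmiz1, a transcriptional coactivator, had 10.6, 9.95, 11.97 and 10.3 RPKM at day 21, against 8.55, 8.38, 7.49 and 7.33 RPKM at day 14. Ptpru, a receptor tyrosine phosphatase, had 2.12, 1.99, 2.49 and 1.92 RPKM at day 21, against 1.17, 1.58, 1.59 and 1.28 RPKM at day 14. The groups did not overlap in any of the 3, yet each was established within 1.5-fold on the log2(RPKM + 1) scale, with log2 changes of 0.29 ± 0.052, 0.39 ± 0.072 and 0.38 ± 0.072 and a limma adjusted p of 0.0783 each. Ptpru is low enough for the added 1 to shrink its change, which was 0.60 by voom, beyond 1.5-fold. Tns2, a focal adhesion protein, had 36.3, 34.6, 41.2 and 36.7 RPKM at day 21, against 24.8, 28.6, 26.2 and 19.01 RPKM at day 14, a log2 change of 0.59 ± 0.11. On the lower side Ppic, cyclophilin C, a folding enzyme of the secretory pathway, had 52.5, 59.5, 55.2 and 54.8 RPKM at day 21, against 94.7, 72.97, 82.9 and 72.6 RPKM at day 14. Its day 21 mice were close together and below every day 14 mouse, with a log2 change of -0.53 ± 0.10 (limma adjusted p 0.0843). Nrep, a neuronal regeneration related protein, had 15.5, 19.01, 15.3 and 13.4 RPKM at day 21, against 26.4, 19.9, 23.3 and 37.3 RPKM at day 14. Thy1, a surface glycoprotein of fibroblasts and lymphocytes, had 7.64, 9.92, 9.05 and 8.098 RPKM at day 21, against 14.5, 15.8, 10.8 and 12.1 RPKM at day 14. In both, the highest day 21 mouse lay below the lowest day 14 mouse, and the log2 changes were -0.69 ± 0.14 and -0.56 ± 0.11. Adamts17, a metalloprotease of low level here, had a log2 change of -0.52 ± 0.11 (limma adjusted p 0.0926). The added 1 shrinks this change, which reached -1.12 under other settings. These genes stand at the edge of the threshold: Parp3, Prelp, Ptpru, Tns2 and Zmiz1 were the 5 genes called higher when libraries were scaled to the recovered reads. With both regions in 1 fit and the mouse as a random effect, limma called Csf1, Ptpru, Susd5 and Prg4 higher and Adamts17 and Mmp16 lower.

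**Figure D2:**
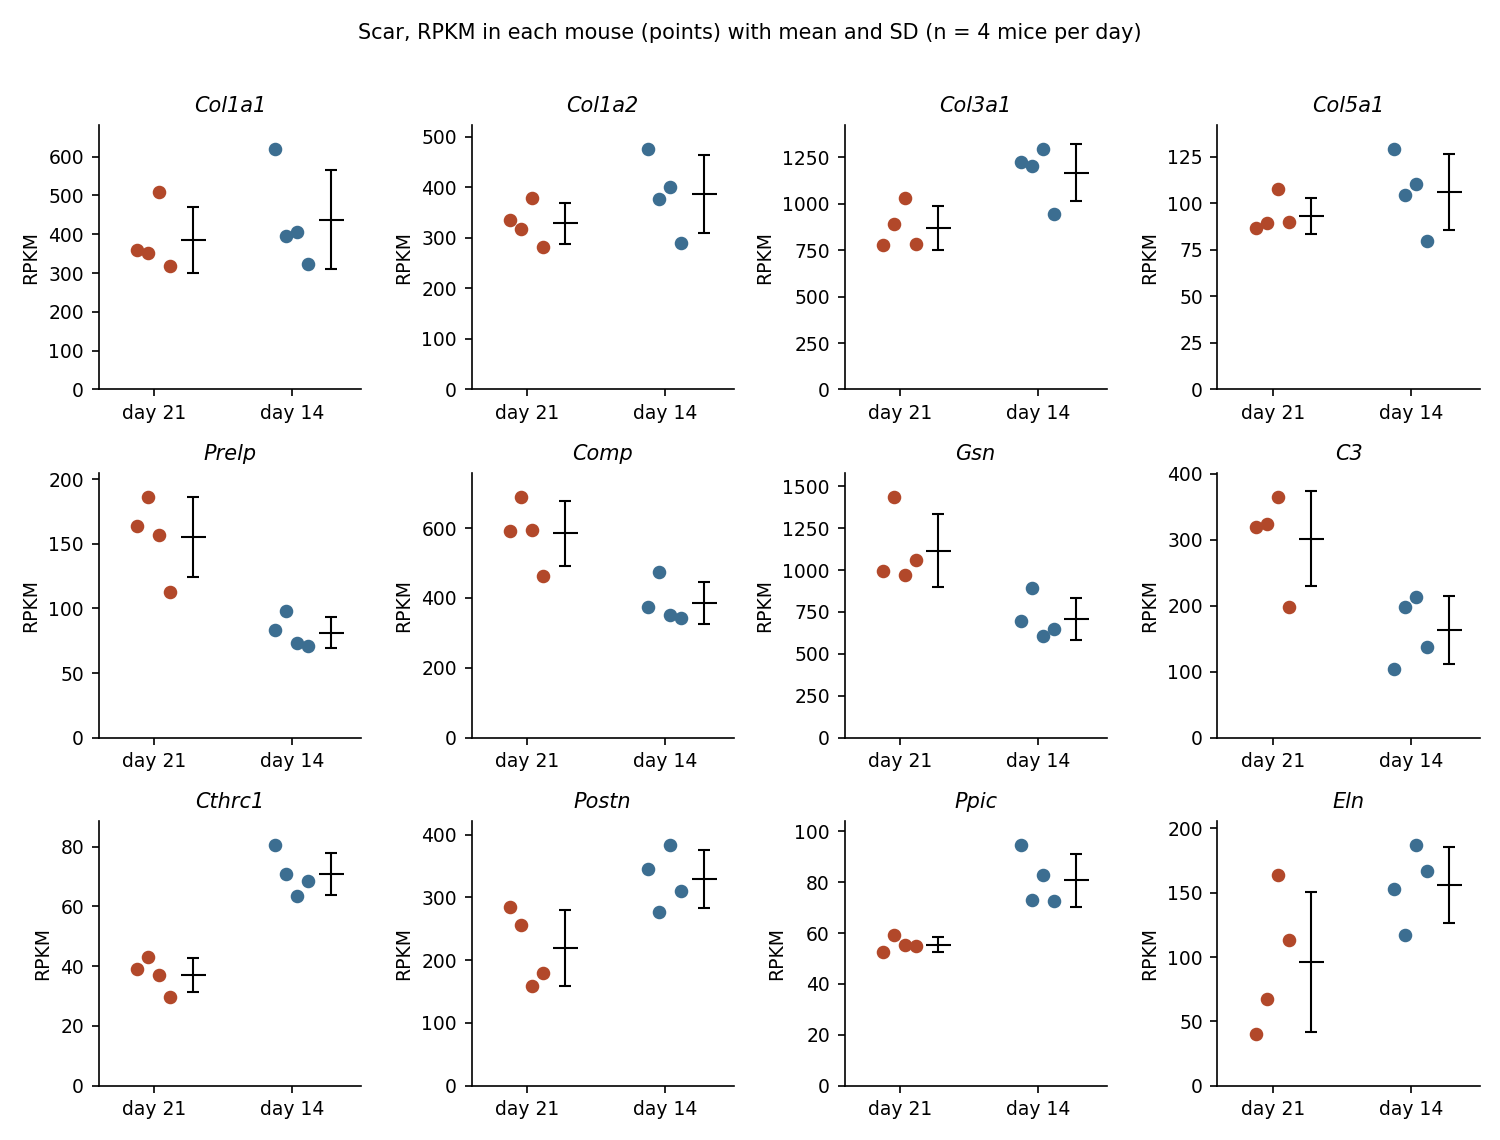
RPKM of 12 genes in the scar of each mouse (points), with mean and SD (n = 4 mice per day), day 21 left of day 14. The upper row shows 4 fibrillar collagen genes whose groups overlap, the middle row shows genes with higher means at day 21 and the lower row genes with lower means at day 21.

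Fibrillar collagens stayed within 2-fold in 10 of 10 tested genes and within 1.5-fold in 8 of 10, where 99.2% and 95.4% of all genes did. Their median log2 change was -0.18, against 0.00047 over all genes, and 2 of 10 were positive. Without day 14 mouse A11 or without day 21 mouse A10, 4 of 10 were within 1.5-fold. Col1a1 (chr11:94936224-94953042) had 360.4, 352, 509 and 318 RPKM at day 21, against 620.4, 396, 407 and 324 RPKM at day 14, 385 ± 84.6 RPKM at day 21 and 437 ± 128 RPKM at day 14 (SD, n = 4 each). The groups overlapped, and the log2 change of -0.16 ± 0.21 had a 95% interval of -0.61 to 0.28. Its partner chain Col1a2 had a change of -0.22 ± 0.16, with an interval of -0.56 to 0.12. Col3a1, the type III collagen of pliable early scar and the most abundant of the group, had 777, 891, 1029 and 784 RPKM at day 21, against 1224, 1206, 1296 and 945 RPKM at day 14. Only the highest day 21 mouse, A10, passed the lowest day 14 mouse, A11. Its log2 change was -0.42 ± 0.15 with an interval of -0.73 to -0.12, which put it within 2-fold but not within 1.5-fold.

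The type V chains, minor fibril-forming collagens that set fibre diameter and the subject of the study, were all within 1.5-fold. Col5a1 (chr2:27886425-28039514) had 86.5, 89.5, 107.7 and 90.03 RPKM at day 21, against 129, 104, 110.3 and 79.7 RPKM at day 14. Day 14 mice spread more widely than day 21 mice, which lay inside their range, and the log2 change of -0.16 ± 0.15 had a 95% interval of -0.47 to 0.14. Col5a2 had 153, 157, 161 and 149.7 RPKM at day 21, against 228, 182, 204 and 163 RPKM at day 14. All its day 21 mice were below all its day 14 mice, by a log2 change of -0.31 ± 0.12 (limma adjusted p 0.28). Col5a3 had 5.48, 5.99, 15.04 and 12.6 RPKM at day 21, against 8.34, 8.29, 7.39 and 11.2 RPKM at day 14. At day 21 its mice formed a low and a high pair, A3 with A4 and A10 with A11, and the change of 0.037 ± 0.24 had a wider interval of -0.46 to 0.54. The low pair is also the pair without Xist, and whether Col5a3 follows Xist was not tested. Col11a1, a chain that copolymerises with type V, had the widest interval of the fibrillar group, -1.07 to 0.048.

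The non-fibrillar collagens and the enzymes that make collagen met the 1.5-fold bound in this fit. All 8 basement membrane collagens, all 12 other collagens tested and all 23 folding and processing genes did so, with median log2 changes of -0.081, -0.051 and -0.045. Under other settings the other collagens were bounded less often, with 9 of 12 by voom or without day 21 mouse A3 and 8 of 12 in 40 libraries with the mouse as a random effect. P4hb, the shared subunit of prolyl 4-hydroxylase, had 132, 129, 142 and 152 RPKM at day 21, against 149.8, 141, 150.3 and 133 RPKM at day 14. Serpinh1, the collagen chaperone HSP47, had 218, 198, 290.0 and 267 RPKM at day 21, against 269, 274, 251 and 265 RPKM at day 14, with a wider day 21 spread around the day 14 values. Col4a1, a main basement membrane chain, had a change of -0.10 ± 0.14, and Col6a1, a microfibrillar collagen, 0.047 ± 0.11. Col15a1, which links basement membranes to fibres, had 70.7, 58.7, 72.2 and 75.6 RPKM at day 21, against 92.6, 81.2, 89.1 and 83.1 RPKM at day 14, without overlap. The folding genes had been moving one step earlier: from day 7 to day 14, 14 of 23 fell and 3 rose, where 21.2% of all genes fell and 21.9% rose. That step uses the same day 14 libraries. Of the 9 cross-linking genes, 8 were within 1.5-fold, the exception being Lox. This founding lysyl oxidase had 84.6, 83.4, 112 and 108.0 RPKM at day 21, against 165, 114, 125 and 140.1 RPKM at day 14. The groups did not overlap, and the log2 change of -0.48 ± 0.18 had a limma adjusted p of 0.263, whereas its relative Loxl1 had a change of 0.12 ± 0.10.

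**Figure D3:**
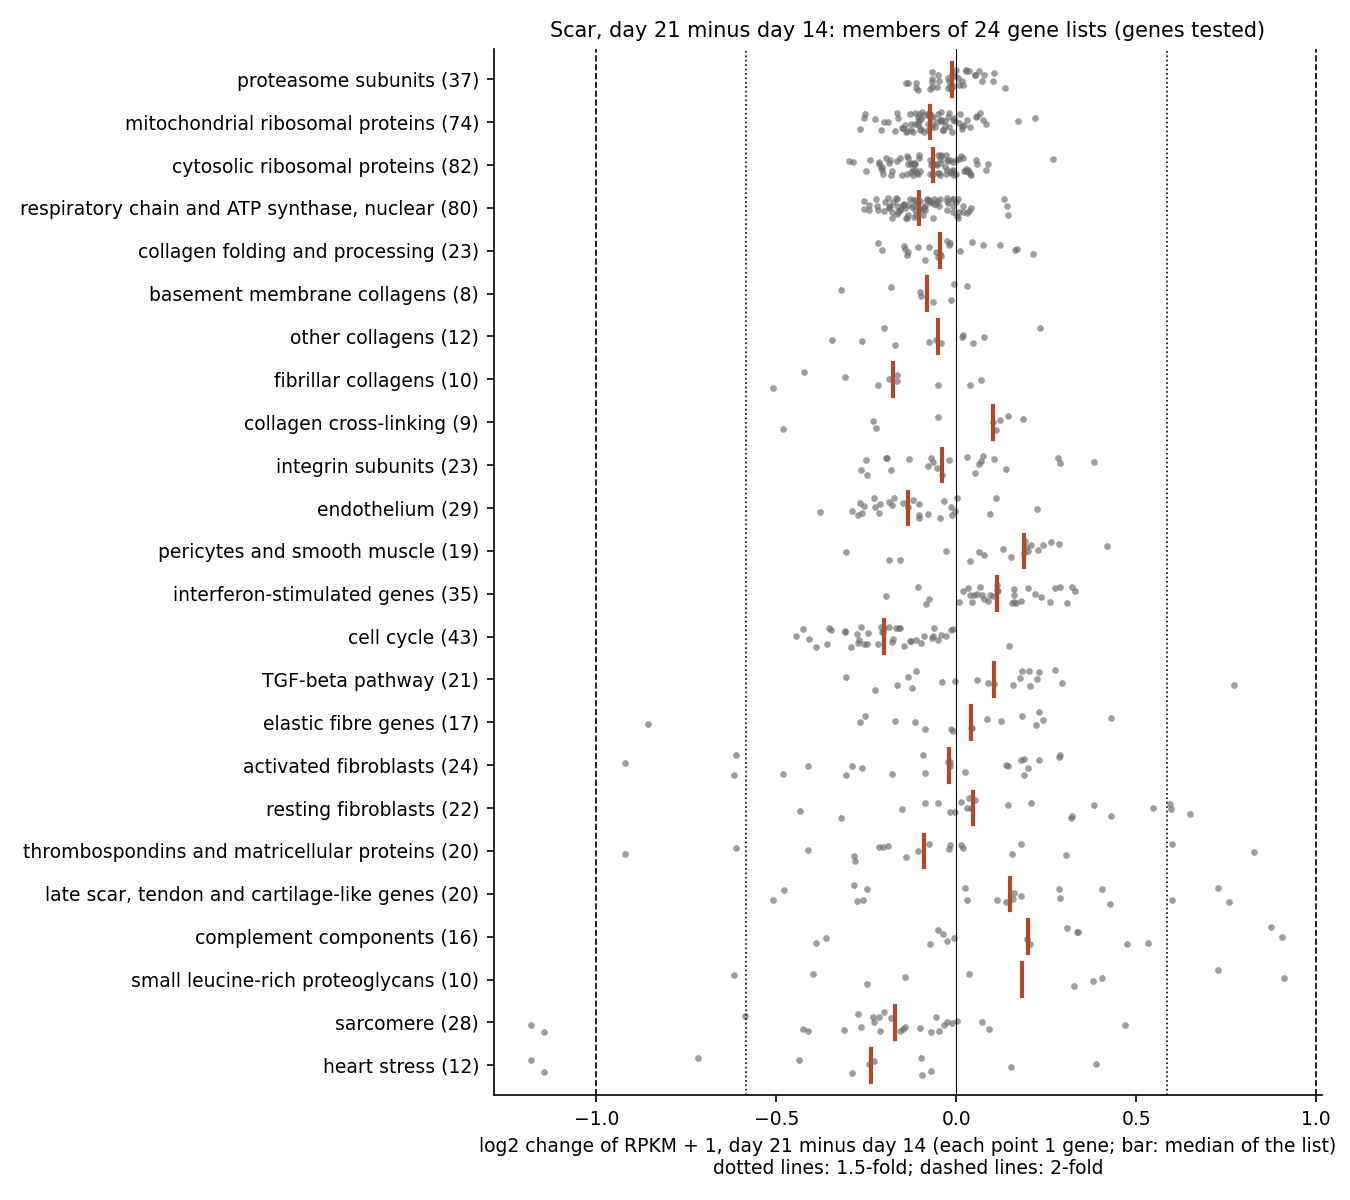
Log2 change of RPKM + 1, day 21 minus day 14, of each tested member (points) of 24 gene lists, with the list median as a bar. Dotted lines mark 1.5-fold and dashed lines 2-fold, and no single member passed the test of change. The proteasome, ribosome and collagen folding members crowd around 0, while matricellular, proteoglycan, sarcomere and heart stress members spread beyond 1.5-fold.

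The small leucine-rich proteoglycans, which bind collagen fibrils and regulate their growth, were among the least settled matrix genes. Of 10 tested, 7 were within 2-fold and 3 within 1.5-fold, and the median half-width was 0.36. Without day 14 mouse A11, 5 were within 1.5-fold, and the fewest under other settings was 2. Their values pointed both ways. Dcn, decorin, had 986, 1376, 810.3 and 765 RPKM at day 21, against 787, 1061, 891 and 1026 RPKM at day 14, a change of 0.035 ± 0.16. Bgn, biglycan, had 484, 485, 525 and 400.4 RPKM at day 21, against 451, 398, 325 and 341 RPKM at day 14, and 3 of 4 day 21 mice lay above the day 14 range. Fmod, fibromodulin, had a change of 0.40 ± 0.20. Lum, lumican, had 238, 331, 216 and 204 RPKM at day 21, against 303, 338, 286 and 360.2 RPKM at day 14. Aspn, asporin, had 242, 244, 111 and 128 RPKM at day 21, against 228, 299, 256 and 268 RPKM at day 14. It was within neither margin, and at day 21 only mice A10 and A11 lay below the day 14 range. Chad, chondroadherin, a cartilage matrix protein, had 2.73, 5.76, 7.76 and 6.102 RPKM at day 21, against 1.64, 4.83, 2.46 and 2.94 RPKM at day 14 and a change of 0.73 ± 0.27. At this level the added 1 shrinks the change of Chad, which reached 1.04 under other settings.

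Matricellular proteins, secreted regulators of cell and matrix contact, gave 18 of 20 within 2-fold and 10 of 20 within 1.5-fold. Sparc, a collagen-binding glycoprotein, had 805, 909, 991 and 826 RPKM at day 21, against 1109, 1068, 966 and 948 RPKM at day 14, and its change of -0.21 ± 0.12 was within 1.5-fold. Ctgf, a growth factor of fibrosis, had a change of -0.075 ± 0.17 and Thbs1, thrombospondin 1, 0.017 ± 0.30. Comp, a cartilage thrombospondin that assembles collagen fibres (chr8:70373558-70382066), had 592, 689, 595 and 462 RPKM at day 21, against 375, 474, 349.9 and 342 RPKM at day 14. Day 21 mouse A11 lay inside the day 14 range and the other day 21 mice lay above it, with a log2 change of 0.60 ± 0.18 and a limma adjusted p of 0.229. Its means over the 5 days were 1.97, 117, 385, 584 and 529 RPKM. Postn, periostin, a marker of activated fibroblasts (chr3:54361109-54391037), had 285, 256, 158 and 179 RPKM at day 21, against 345, 277, 384 and 310.0 RPKM at day 14. Only day 21 mouse A3 lay inside the day 14 range, and the other 3 lay below it, and the log2 change was -0.61 ± 0.20 (limma adjusted p 0.241).

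Of the elastic fibre genes, 13 of 17 were within 1.5-fold and 16 of 17 within 2-fold. Eln, which encodes elastin, was the one gene outside 2-fold, with 40.6, 67.2, 164 and 113 RPKM at day 21, against 153, 117, 187 and 167 RPKM at day 14. Day 21 mice A3, A4 and A11 lay below the day 14 range and A10 inside it, and the 95% interval was -1.56 to -0.15. Fbn1, fibrillin 1, the scaffold of elastic microfibrils, had a change of -0.25 ± 0.16. Fbln1, fibulin 1, a microfibril partner, had 212, 228, 198 and 192 RPKM at day 21, against 142, 166, 155 and 151 RPKM at day 14, without overlap, and a change of 0.43 ± 0.12. The fibronectin, laminin and basement membrane genes were within 1.5-fold in 13 of 14. Their median was -0.11, and the mean log2 value of the list lay at 4.42 to 4.46 at day 21 and 4.499 to 4.601 at day 14, without overlap. Such list means did not overlap in 3 of 57 lists. Fn1, fibronectin, had 277, 286, 295 and 192 RPKM at day 21, against 496, 308, 268 and 244 RPKM at day 14, and its change of -0.29 ± 0.24 was the exception. Lamb1, the laminin beta-1 chain, had 19.1, 17.00, 17.3 and 19.1 RPKM at day 21, against 28.1, 21.9, 22.1 and 22.3 RPKM at day 14, without overlap, a change of -0.36 ± 0.094.

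On the log2(RPKM + 1) scale, all 18 metalloproteinase and TIMP genes, all 14 ADAMTS genes and all 11 cathepsins were within 2-fold. For Adamts17, with means of 0.5845 RPKM at day 21 and 1.285 RPKM at day 14, this bound rests on the added 1. Its log2 change reached -1.12 under other settings, beyond 2-fold. Within 1.5-fold were 14 of 18, 11 of 14 and 10 of 11, where 95.4% of all genes were. The fewest under other settings were 9, 8 and 7. Mmp2, a gelatinase that fibroblasts secrete, had a change of -0.018 ± 0.15. Timp3, a matrix-bound inhibitor, had 182, 191, 171 and 162 RPKM at day 21, against 155, 155, 125 and 106 RPKM at day 14, without overlap. Ctss, cathepsin S, a macrophage protease, had 91.8, 155, 121 and 107.8 RPKM at day 21, against 202, 177, 134 and 162 RPKM at day 14 and a change of -0.51 ± 0.17, the one cathepsin outside 1.5-fold. Integrin subunits, the cell's matrix receptors, were within 1.5-fold in 22 of 23 (16 at the fewest under other settings). The shared beta-1 chain Itgb1 had 173, 179.7, 171 and 195 RPKM at day 21, against 209.8, 213, 197 and 237 RPKM at day 14. These groups did not overlap, although the change of -0.25 ± 0.085 was inside the 1.5-fold margin.

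Fibroblast states showed no called change. The 24 activated fibroblast genes were within 2-fold in 22 and within 1.5-fold in 15, with a median of -0.02 that was 1.3e-05 when libraries were scaled to the recovered reads. Between day 7 and day 14, 17 of them had fallen and 3 risen, where 21.2% of all genes fell and 21.9% rose. That step shares the day 14 libraries. Acta2, smooth muscle actin, the contractile marker of myofibroblasts, had 194, 223, 181 and 155 RPKM at day 21, against 195, 162, 122 and 143 RPKM at day 14. Meox1, a transcription factor of fibroblast activation, had 43.9, 34.5, 42.1 and 41.8 RPKM at day 21, against 53.2, 30.4, 35.9 and 42.7 RPKM at day 14. Both pairs of groups overlapped, and Meox1 was within 1.5-fold, with an interval of -0.26 to 0.31. The 22 genes of resting fibroblasts were all within 2-fold and 13 within 1.5-fold, with a median of 0.046. Pdgfra, a receptor that marks the lineage, had 28.5, 35.95, 32.2 and 28.9 RPKM at day 21, against 29.3, 36.1, 28.02 and 33.6 RPKM at day 14. Gsn, gelsolin, an actin-severing protein abundant in quiescent fibroblasts (chr2:35256380-35307892), had 993, 1437, 973 and 1059.7 RPKM at day 21, against 695, 891, 607 and 645 RPKM at day 14. All day 21 mice were above all day 14 mice, and the change was 0.65 ± 0.16 (limma adjusted p 0.153).

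Late scar, tendon and cartilage-like genes were within 2-fold in 17 of 20 and within 1.5-fold in 8 of 20, the median being 0.15 and the mean log2 value of the list 4.73 to 5.03 at day 21 and 4.66 to 4.95 at day 14. Without day 21 mouse A4, 5 were within 1.5-fold. Prg4, lubricin, a joint-surface proteoglycan, had 4.46, 3.81, 4.12 and 3.400 RPKM at day 21, against 1.17, 2.31, 2.18 and 2.16 RPKM at day 14. It did not overlap between days and its log2 change was 0.76 ± 0.15 (limma adjusted p 0.0858). Prg4 is low enough for the added 1 to shrink this change, which reached 1.03 under other settings. Clu, clusterin, an extracellular chaperone, pointed the other way, with 412, 266, 302 and 412 RPKM at day 21, against 457, 374, 571 and 528 RPKM at day 14. Angptl7, an extracellular matrix associated angiopoietin-like protein, had 265, 356, 165 and 108.3 RPKM at day 21, against 106, 346, 193 and 72.3 RPKM at day 14, so widely spread that its interval of -0.47 to 1.32 bounds little. TGF-beta pathway genes, the main fibrosis signal, were within 1.5-fold in 19 of 21. Csf1, the macrophage growth factor that fibroblasts secrete, had 22.8, 22.7, 25.1 and 23.1 RPKM at day 21, against 16.2, 18.3, 16.04 and 13.2 RPKM at day 14. Its groups did not overlap, and its change was 0.54 ± 0.10 (limma adjusted p 0.0843).

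**Figure D4:**
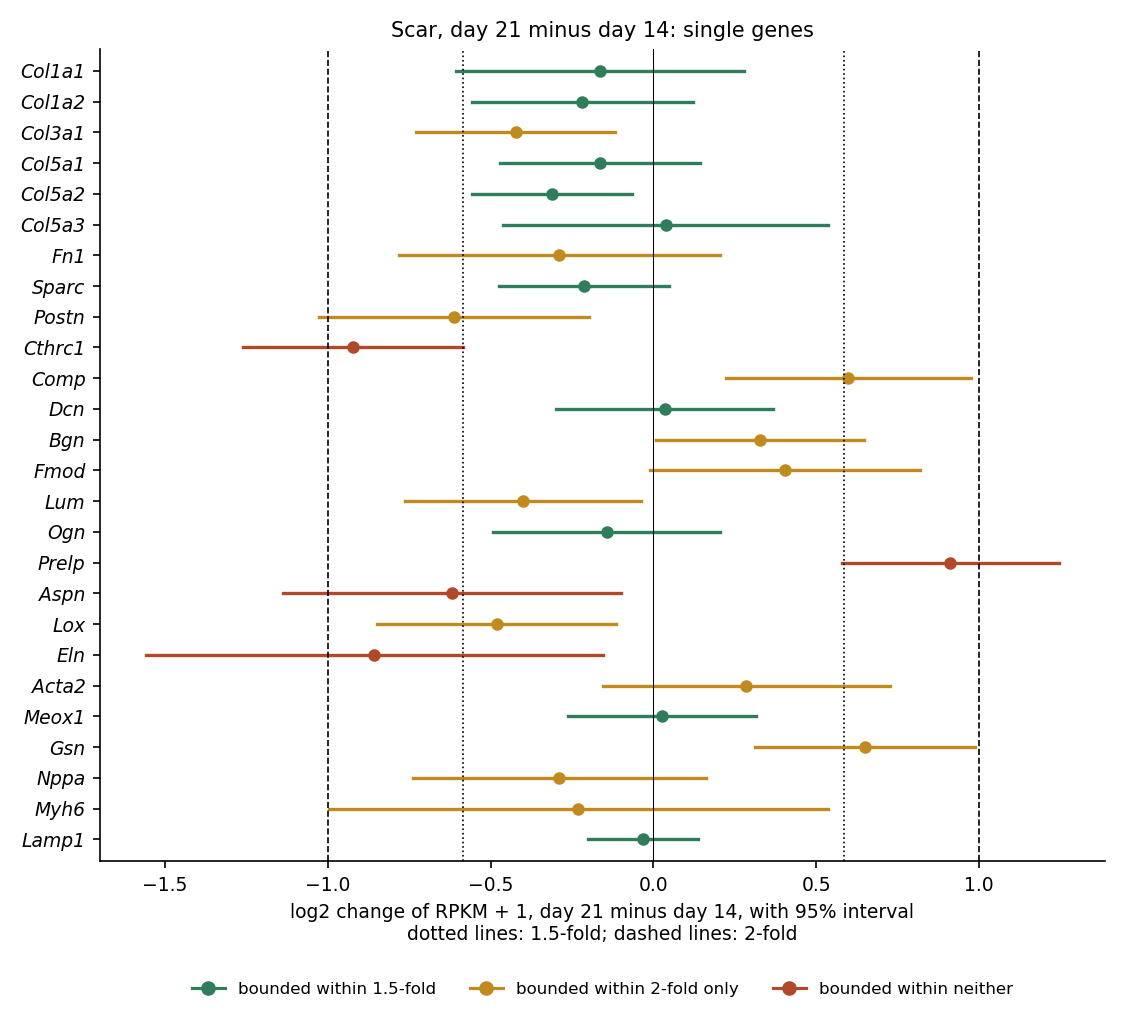
Log2 change of RPKM + 1 in the scar, day 21 minus day 14, with its 95% interval for 26 genes. Colours mark genes bounded within 1.5-fold, within 2-fold only, and within neither. Because the margin test is one-sided at each end and most genes pass it, an interval can cross a line slightly and still be bounded, as for Col1a1 (-0.61).

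Inflammatory cell genes did not pass the test of change. Monocyte and early macrophage genes had a median of -0.036, with 15 of 21 within 1.5-fold (9 at the fewest under other settings). Between day 7 and day 14, 17 of the 21 had fallen, where 21.2% of all genes fell. That step shares the day 14 libraries. Lyz2, lysozyme of myeloid cells, had 276, 484, 402 and 340.0 RPKM at day 21, against 535, 359, 416 and 319 RPKM at day 14. Lipid-associated macrophage genes had a median of -0.20 and 14 of 19 within 1.5-fold (6 at the fewest under other settings). Gpnmb, a marker of lipid-laden macrophages, had 4.19, 9.23, 9.04 and 5.403 RPKM at day 21, against 20.7, 9.13, 10.7 and 5.88 RPKM at day 14, and was within neither margin. Spp1, osteopontin, had a change of -0.28 ± 0.33 and an interval of -0.98 to 0.41. Resident-type macrophage genes had a median of 0.11 and 14 of 21 within 1.5-fold. Gas6, a ligand for receptors that drive the clearance of dead cells, had 238, 209, 254 and 256 RPKM at day 21, against 197, 201, 179 and 127 RPKM at day 14, without overlap. All 10 dendritic cell and MHC class II genes tested were within 1.5-fold in this fit, but 4 at the fewest under other settings. Cd74, the class II invariant chain, had 213, 313, 187 and 191 RPKM at day 21, against 205, 225, 228 and 253 RPKM at day 14.

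Lymphocyte transcripts could hardly be bounded. Igkc, the kappa light chain of antibodies, had 5.75, 8.95, 39.7 and 19.4 RPKM at day 21, against 3.62, 86.6, 248 and 20.01 RPKM at day 14, and its 95% interval was -3.56 to 0.94. Of 4 immunoglobulin transcripts 0 were within 2-fold, and 29 lymphocyte genes were listed of which 5 could be tested. Complement components had a median of 0.20 with 14 of 16 within 2-fold and 8 of 16 within 1.5-fold. C3, the central complement protein (chr17:57203970-57228136), had 319, 324, 365 and 198 RPKM at day 21, against 104, 197, 213 and 137 RPKM at day 14. Only day 21 mouse A11 lay inside the day 14 range, and the change was 0.90 ± 0.32 (limma adjusted p 0.253). Interferon-stimulated genes were within 1.5-fold in 34 of 35 (22 at the fewest under other settings), with 31 of 35 positive and a median of 0.11. Irf7, a transcription factor that drives the interferon response, had 6.74, 5.37, 6.36 and 6.31 RPKM at day 21, against 4.19, 4.53, 4.15 and 6.17 RPKM at day 14.

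Cell cycle genes had lower values at day 21 in 42 of 43 members, with no call and with bounds that were looser by voom. Of 43 tested on the log2(RPKM + 1) scale, 0 were called by limma, all were within 2-fold and 39 were within 1.5-fold. On the lower side, 16 had an unadjusted limma p under 0.05, where 13.1% of all genes had one in either direction. The median was -0.20, and the mean log2 value of the list was 1.31 to 1.495 at day 21 and 1.52 to 1.63 at day 14, without overlap. List means did not overlap in 3 of 57 lists. With voom, which adds less to low values before the logarithm, the median was -0.31 and 12 of 43 were within 1.5-fold. Libraries did not overlap for 12 of the 43, all lower, where 2.74% of all genes were. Ccne2, a cyclin of DNA replication onset, had 0.923, 1.14, 0.906 and 0.923 RPKM at day 21, against 1.67, 1.77, 1.56 and 1.61 RPKM at day 14. Rrm2, a subunit of ribonucleotide reductase, had 1.75, 2.27, 2.04 and 1.57 RPKM at day 21, against 2.53, 3.002, 3.03 and 2.84 RPKM at day 14. Ccna2, an S and G2 phase cyclin, had 1.37, 1.98, 1.97 and 1.501 RPKM at day 21, against 2.95, 2.304, 2.27 and 2.63 RPKM at day 14. These 3 were among the non-overlapping genes. Top2a, the topoisomerase of dividing cells, had 1.96, 3.07, 2.38 and 2.12 RPKM at day 21, against 3.95, 3.17, 3.06 and 4.19 RPKM at day 14, where day 21 mouse A4 lay inside the day 14 range. Its means over the 5 days were 23.6, 9.08, 3.59, 2.38 and 2.998 RPKM. In this list, 38 genes had fallen between day 7 and day 14, 8 rose and 0 fell from day 21 to day 42, and those steps share libraries with this one. Background calls were 21.9% higher and 21.2% lower for the earlier step, and 11.2% higher and 13.6% lower for the later one. In the remote region the median of the list was 0.041.

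**Figure D5:**
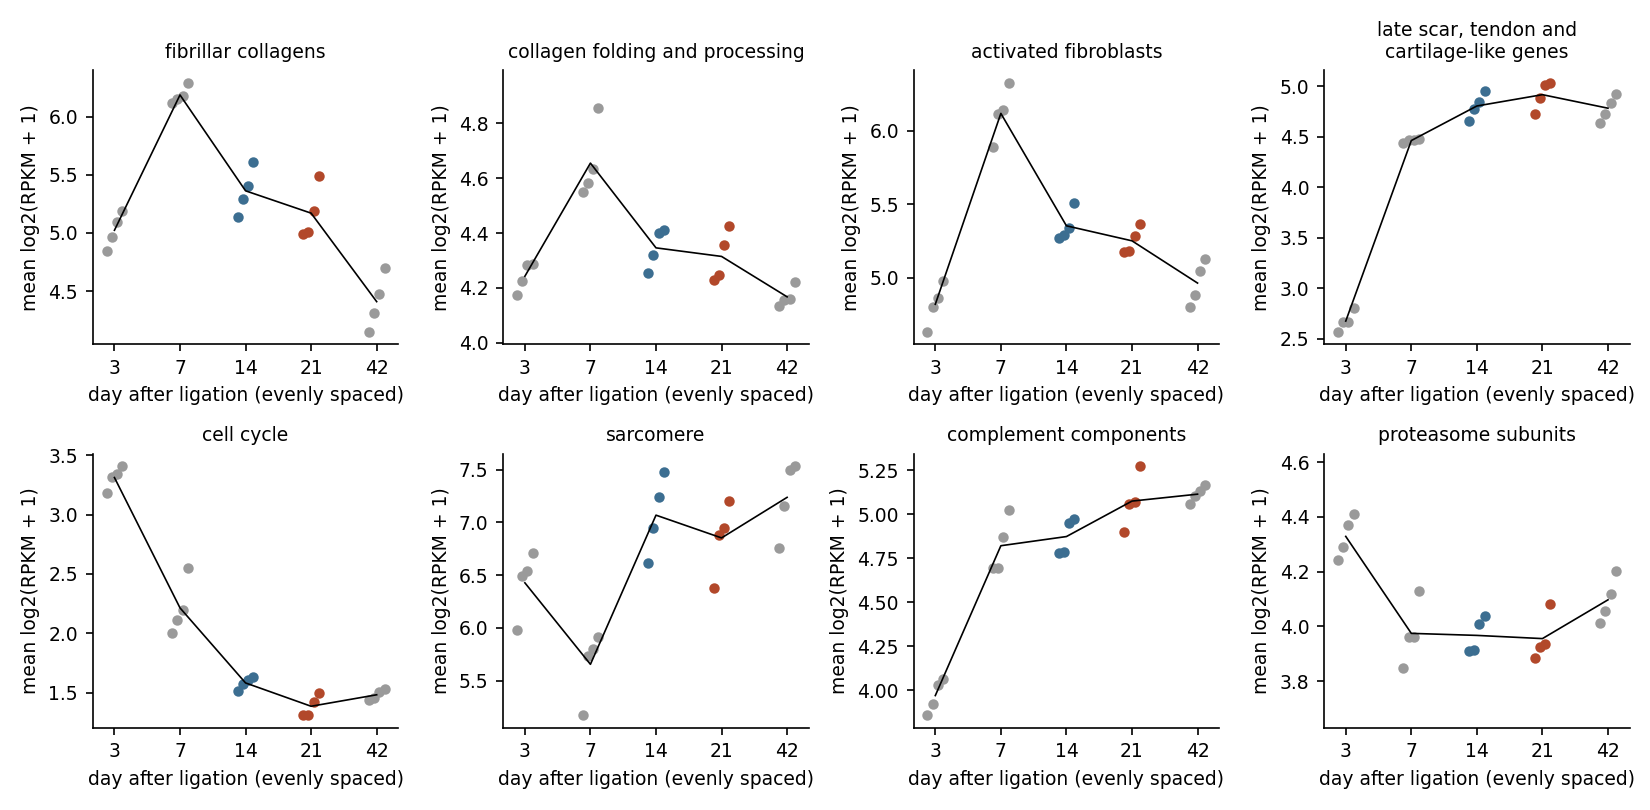
Mean log2(RPKM + 1) of 8 gene lists in each scar library (points) and the mean per day (line) for days 3, 7, 14, 21 and 42, evenly spaced, with days 14 and 21 coloured. The axes start at the data, not at 0. Cell cycle points of day 21 lie below those of day 14, and the points of both days overlap in the other 7 lists.

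Vessel genes were mostly inside the bounds. Endothelial genes were within 1.5-fold in 28 of 29 (22 at the fewest under other settings), their median was -0.14 and 25 of 29 were negative. Kdr, the main receptor for VEGF, had 7.52, 7.02, 8.36 and 8.43 RPKM at day 21, against 9.74, 9.07, 11.7 and 11.5 RPKM at day 14, without overlap and still inside the 1.5-fold margin at -0.38 ± 0.10. Pecam1, a junction protein, had a change of -0.19 ± 0.09. Pericyte and smooth muscle genes had a median of 0.19, with 15 of 19 positive and 17 within 1.5-fold (12 at the fewest under other settings). Myh11, smooth muscle myosin, had 37.7, 37.7, 31.99 and 25.2 RPKM at day 21, against 22.2, 29.9, 24.3 and 21.4 RPKM at day 14. Rgs5, a pericyte signalling regulator, pointed the other way, with 78.1, 84.6, 75.03 and 84.2 RPKM at day 21, against 95.8, 90.6, 88.1 and 129 RPKM at day 14. Schwann cell and neuron genes were positive in 9 of 9 and within 1.5-fold in 5 of 9, where 95.4% of all genes were. The mean log2 value of the list was 3.01 to 3.14 at day 21 and 2.83 to 2.93 at day 14, without overlap. List means did not overlap in 3 of 57 lists. Uchl1, a neuronal deubiquitinase, had 20.97, 14.6, 15.4 and 21.5 RPKM at day 21, against 13.9, 11.8, 14.4 and 13.7 RPKM at day 14. Epicardial and mesothelial genes had wide bounds, with 10 of 14 within 2-fold and 5 of 14 within 1.5-fold. The latter count was 3 without day 21 mouse A4 or A10 and 2 at the fewest under other settings. Msln, mesothelin, had an interval of -1.52 to 1.43.

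Heart muscle genes in the scar were not called, and their bounds were loose. Sarcomere genes were within 2-fold in 25 of 28 and within 1.5-fold in 11 of 28, with a median of -0.17 and a median half-width of 0.50. Without day 14 mouse A4 the count within 1.5-fold was 4, and without day 21 mouse A3 it was 7. From day 7 to day 14, 26 of them had risen, where 21.9% of all genes rose. That step shares the day 14 libraries. Myh6 had 463, 351, 605 and 454 RPKM at day 21, against 379, 599, 705 and 527 RPKM at day 14, a change of -0.23 ± 0.37 with an interval of -0.996 to 0.54. Xirp2, an actin-binding protein of the intercalated disc, had 139, 74.9, 70.5 and 161 RPKM at day 21, against 141, 201, 308 and 333 RPKM at day 14. Acta1, the skeletal actin of the stressed heart, had 11.2, 4.49, 12.1 and 22.2 RPKM at day 21, against 10.5, 19.5, 57.6 and 37.9 RPKM at day 14. Neither was bounded, and their changes were -1.15 ± 0.39 and -1.18 ± 0.58. In the heart stress list, 1 of 12 was within 1.5-fold, and leaving out 1 library gave 1 to 4. Nppa, the atrial natriuretic peptide, had 3951, 3035, 4103 and 4962 RPKM at day 21, against 4648, 3853, 4995 and 6084 RPKM at day 14. Ankrd1, a stretch-responsive repeat protein, had a change of -0.23 ± 0.21. The mean log2 value of the sarcomere list ran over 6.38 to 7.21 at day 21 and 6.61 to 7.48 at day 14, so its spread within a day exceeded the difference between days.

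Energy metabolism genes were bounded more often than sarcomere genes. Fatty acid oxidation and TCA cycle genes were within 1.5-fold in 48 of 50, nuclear respiratory chain and ATP synthase genes in 78 of 80 and glycolysis genes in 22 of 23. Their medians were -0.052, -0.10 and -0.076, and each turned positive when 1 library was left out, reaching 0.063, 0.015 and 0.065. Atp5a1, the catalytic-head alpha subunit of ATP synthase, had 265, 207, 276 and 322 RPKM at day 21, against 226, 251, 348 and 301 RPKM at day 14. Between day 7 and day 14, 45 of 50 fatty acid oxidation and TCA genes and 71 of 80 respiratory chain genes had risen. Of all genes, 21.9% rose over that step, which shares the day 14 libraries. Mitochondrially encoded transcripts were looser, with 5 of 7 within 1.5-fold, and mt-Co1, a cytochrome oxidase subunit, had 5323, 4445, 4559 and 4824 RPKM at day 21, against 3804, 5018, 5786 and 6830.3 RPKM at day 14. Without day 14 mouse A4 or without day 21 mouse A3 0 of them were within 1.5-fold, and without day 14 mouse A5 or day 21 mouse A10 it was 3. All 14 cardiac transcription factors were within 1.5-fold on the log2(RPKM + 1) scale, and 11 by voom. Tbx5, a heart patterning factor of low level here, had 1.602, 1.46, 1.498 and 1.53 RPKM at day 21, against 0.749, 0.8604, 1.09 and 1.09 RPKM at day 14, without overlap, and a change of 0.38 ± 0.083 that was 0.69 by voom, beyond 1.5-fold.

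The general cell machinery was held tightly. All 37 genes named as proteasome subunits, the parts of the cell's protein-degrading complex, were within 1.5-fold, also under each of 20 other settings. Their median was -0.013 (0.021 at the highest under other scalings), with a median half-width of 0.18, and the farthest any interval reached was 0.35. Psmb1, a core subunit, had 53.3, 50.6, 51.6 and 60.99 RPKM at day 21, against 58.2, 53.1, 58.4 and 57.1 RPKM at day 14. All 74 mitochondrial ribosomal protein genes met the bound with a median of -0.074, and 79 of 82 cytosolic ribosomal protein genes did, with a median of -0.064. Rplp1, a ribosomal stalk protein, had 458, 451, 504 and 505 RPKM at day 21, against 555, 477, 463 and 465 RPKM at day 14. Slc25 carriers, which move metabolites across the inner mitochondrial membrane, met it in 33 of 34. These shares stand beside 95.4% of all genes, so a high share by itself says little of a list.

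Over 58 gene lists together, 1095 distinct members were tested, of which 1054 were within 2-fold and 908 within 1.5-fold. Both shares are lower than those of all genes, 99.2% and 95.4%. Of the 57 lists with at least 3 tested members, 35 had every member within 2-fold and 7 every member within 1.5-fold. In 12 lists fewer than 50% of members were within 1.5-fold. Among these was the circadian clock list, with 7 of 18 within 1.5-fold. Nr1d1, the clock repressor REV-ERB alpha, had 44.7, 45.4, 43.8 and 39.4 RPKM at day 21, against 29.6, 32.3, 26.5 and 8.87 RPKM at day 14. Dbp, a clock output factor, had 48.8, 52.7, 31.9 and 22.9 RPKM at day 21, against 42.3, 43.95, 46.01 and 2.93 RPKM at day 14. Day 14 mouse A11 was far below the rest in both, and the hour of sampling is not given in the labels. Xist, of the sex-linked list, had 0.0963, 0.0759, 77.6 and 70.4 RPKM at day 21, against 82.6, 85.1, 0.118 and 84.5 RPKM at day 14, so the groups differ in the mix of mice and its change has no narrow bound.

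The remote region of the same mice gave the same comparison outside the scar. In a test of the difference between the regions, with the mouse as a block, 0 of 11390 genes were called, the smallest limma adjusted p was 0.491 and 619 genes had an unadjusted p under 0.05. Scar and remote values are therefore given side by side only. Ctss had the smallest p, with a log2 change of -0.51 in the scar and 0.40 in the remote region, and Mpeg1, a pore-forming protein of macrophages, had -0.40 and 0.41. Prelp had 0.91 in the scar and 0.33 in the remote region, and Csf1 0.54 and 0.056. Serpina3n, an acute-phase protease inhibitor, had 118, 92.3, 71.8 and 93.7 RPKM at day 21, against 52.4, 40.6, 56.8 and 39.9 RPKM at day 14 in the scar. Its log2 change was 0.97 there and 1.45 in the remote region. Medians of whole lists in scar and remote region were 0.20 and 0.24 for complement, -0.02 and 0.26 for activated fibroblasts and -0.17 and 0.067 for the sarcomere. Remote day 21 mice were not alike in some activated fibroblast genes. Postn had 32.2, 41.2, 138.9 and 93.0 RPKM there, and Lox 1.90, 2.28, 9.64 and 7.94 RPKM, with A10 and A11 high. Acta2 of that list had 66.4, 48.2, 67.0 and 71.3 RPKM, below every remote day 14 mouse. Whether the list median rests on A10 and A11 was not tested.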

How the data were processed

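Total RNA of 40 libraries, a scar and a remote region from each of 20 mice, was measured by RNA sequencing, and the authors deposited 1 table of RPKM values for 11450 genes. STAR, edgeR and mm10 are listed, without version or role, per the submitters' processing notes. The sources used here do not give the annotation, the counting, its use of strand or the choice of genes, so genes that share reads with an antisense or near-identical partner are uncertain. Gene positions come from the GENCODE M21 annotation of mm10. No column was left unused (0).

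Each value was taken as log2(RPKM + 1), and genes were kept where 4 or more of the 40 libraries had at least 1 RPKM. A mean per day was fitted to the 20 scar libraries with limma 3.58.1 (robust trend, R 4.3.3, statmod 1.5.0) and day 21 was contrasted with day 14. All p-values were adjusted by Benjamini and Hochberg over the 11390 genes, with a threshold of 0.05. A bound is a pair of one-sided limma tests against 2-fold or 1.5-fold, adjusted in the same way, and intervals are 95% intervals per gene, unadjusted. The difference between regions was fitted on 40 libraries with the mouse as a fixed block. Each gene's values rise in steps of 1 read, from which whole reads were computed, and in all 11450 genes (100%) every library came out whole within 0.01 reads, up to a common divisor. The scripts were tested on simulated data. The p-values measure the spread between mice that the labels describe as separate animals, 4 per group.

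The members and gene lists were chosen with earlier results of these data known. The genes in the text are the 5 of smallest p in each direction, the 2 most abundant, the widest and the most changed member of each list, the 5 abundant genes with the narrowest bounds, a fixed set of scar genes, and the 5 of smallest p in each direction for the difference between regions. Aspn, Ccna2, Ccne2, Lum, Mmp16, Pdgfra, Pecam1, Rgs5, Rrm2, Serpina3n, Thbs1 and Xirp2, and all genes under other observations outside these sets, were chosen after their values were seen. The alternatives tried changed the pseudocount, the filter, the scaling, the test, the libraries in the fit, the moderation, the block, a covariate for Xist and each replicate in turn. A few named genes, the 1 gene called in the remote region among them, are not reported here.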

Additional observations from a re-analysis of the deposited data

Results flagged for a closer look

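In 13 of 230 groups of 4 libraries, 58 genes and 57 list means each taken on both days, 1 library stood apart from the other 3 by Dixon's criterion at 95%, which chance gives in about 5% of groups. Among single genes, Col5a1 in day 21 mouse A10 was high at 107.7 RPKM, and Prg4 in day 14 mouse A4 was low at 1.167 RPKM. Xist at 0.1181 RPKM and Ddx3y, a gene of the Y chromosome, at 22.82 RPKM set day 14 mouse A6 apart from the other day 14 mice, as did the mean log2 value of the sex-linked list at 3.018. Day 14 mouse A11 was low in the mean log2 value of the other collagens (4.359), the secreted Wnt modulators (4.402) and the circadian clock genes (2.498). Day 14 mouse A4 stood apart in the metalloproteinase and TIMP list at 3.406 and in the adipocyte list at 3.251. Day 21 mouse A4 did so in the dendritic cell and MHC class II list at 4.484 and in the calcium handling and ion channel list at 3.322. Day 21 mouse A3 stood apart in the interferon-stimulated list at 2.886.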

How the results depend on the processing

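No gene was called with a pseudocount of 0.1 or 0.5, without a filter, with a filter of 5 RPKM, after quantile normalization, by limma-voom, without trend and robust moderation, with the Xist covariate, or in the 8 libraries of both days alone, where the smallest limma adjusted p was 0.241. Scaling to the recovered reads, which put the median of all genes at 0.03, called 5 higher, and 40 libraries with the mouse as a random effect (correlation 0.185) called 4 higher and 2 lower. Leaving out 1 library gave 0 to 21 higher and 0 to 4 lower genes, 11264 to 11292 genes within 2-fold and 10652 to 10807 within 1.5-fold. The causes were not tested. The count within 1.5-fold was 10157 by voom, 10219 with a pseudocount of 0.1 and 10925 without a filter. The count at an unadjusted p under 0.05 was 964 without day 14 mouse A11 and 955 without day 21 mouse A10. With the animal label as a replicate block, which leaves 3 residual degrees of freedom, 0 genes were called, 420 had an unadjusted p under 0.05 and 10397 were within 1.5-fold. The count within 1.5-fold was then 4 of 10 for dendritic cell and MHC class II genes, 6 of 19 for lipid-associated macrophage genes and 5 of 8 for basement membrane collagens. The labels A4 and A11 recur on both days for other animals, and the deviations of the libraries that share one correlated at 0.194 and 0.264. For the difference between regions, leaving out 1 mouse gave 0 to 3 called genes, 3 without day 21 mouse A4 and 2 without day 21 mouse A10. Its count at an unadjusted p under 0.05 was 387 without day 14 mouse A11 and 1251 without day 21 mouse A11. Of 208 named genes, 126 kept the sign of their change under all 20 alternatives and 13 were called under at least 1. The list medians, compared after seeing the data, kept their sign under all 20 in 27 of 57 lists and under the 3 scalings in 50. With 4 mice per group, genes whose mice vary widely cannot be bounded.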

Other observations

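The gene lists not described above also held no called gene. Of the immediate early genes, which cells switch on within minutes of a stimulus, 19 of 22 were within 1.5-fold, with a median log2 change of 0.078. Hypoxia and angiogenesis genes were within 1.5-fold in 18 of 22 and calcium handling and ion channel genes in 29 of 34, with medians of -0.077 and -0.043. Under other settings these counts were at the fewest 14 and 20. Red blood cell genes were bounded loosely, with 4 of 7 within 2-fold and 3 of 7 within 1.5-fold, and chemokines with 15 of 16 and 7 of 16. Haem breakdown and iron handling genes were within 1.5-fold in 15 of 19, S100 proteins in 8 of 10, neutrophil genes in 5 of 6 (1 by voom), adipocyte genes in 4 of 5 (2 by voom), secreted Wnt modulators in 6 of 7 and natriuretic, angiotensin, endothelin and adrenergic signalling genes in 14 of 17. The fewest under other settings were 10 for the haem and iron list, 5 for the S100 proteins and 1 for the adipocyte genes. Insulin-like growth factor and binding protein genes were within 1.5-fold in 8 of 14. In that list H19, an imprinted long noncoding RNA, had 2.55, 3.35, 9.31 and 3.85 RPKM at day 21, against 9.57, 10.5, 5.55 and 9.01 RPKM at day 14. Day 21 mouse A10 lay inside the day 14 range and the other 3 below it, and the log2 change was -0.84 ± 0.30. Sfrp2, a secreted Wnt modulator, had 532, 603, 276 and 98.0 RPKM at day 21, against 376, 407, 392 and 312 RPKM at day 14. Day 21 mice lay on both sides of the narrow day 14 range, with a log2 change of -0.28 ± 0.41.

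Genes that glucocorticoids induce, listed after their values were seen, were positive in 14 of 14 tested members, with 0 called by limma. Their median log2 change was 0.45 with a median half-width of 0.57, and 7 of 14 were within 2-fold and 1 of 14 within 1.5-fold. Tsc22d3, the leucine zipper protein GILZ, had 62.6, 71.4, 62.1 and 77.7 RPKM at day 21, against 43.7, 107.7, 48.7 and 34.2 RPKM at day 14. Fkbp5, a cochaperone of the glucocorticoid receptor, had 13.6, 14.5, 18.8 and 33.1 RPKM at day 21, against 5.93, 20.5, 12.1 and 9.90 RPKM at day 14. Zbtb16, a zinc finger repressor, had 18.99, 14.7, 22.1 and 33.5 RPKM at day 21, against 4.20, 25.5, 14.6 and 12.2 RPKM at day 14. In all 3, day 14 mouse A5 was the highest of its day. In Pdk4 and Cdkn1a of the same list, day 14 mouse A11 was higher, at 24.5 and 11.7 RPKM against 19.5 and 7.97 RPKM in A5. Day 14 mouse A5 is also the library without which 21 genes were called higher and 4 lower, and a link was not tested.

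A pair of processed pseudogenes, chosen after their values were seen, was near 0 in all but 2 of the 8 mice of days 21 and 14. At day 42 the scar averaged 0.00878 ± 0.0176 RPKM for Gm13394 and 8.15 ± 16.2 RPKM for Gm15459 (SD, n = 4). Gm13394 (chr2:28933610-28934609) had 0.163, 0.0296, 0.0959 and 0.287 RPKM at day 21, against 0.157, 37.7, 0.228 and 42.6 RPKM at day 14. Gm15459 (chr5:5781615-5783555) had 0.117, 0.107, 0.198 and 0.0923 RPKM at day 21, against 0.0811, 37.0, 0.0671 and 27.3 RPKM at day 14. Day 14 mice A5 and A11 were the high ones in both genes. The remote regions of the same 2 mice were high as well, at 80.8 and 62.1 RPKM for Gm13394 and at 84.6 and 59.7 RPKM for Gm15459, while the other remote regions of both days were at most 0.390 RPKM. A processed pseudogene can share reads with its parent gene, and how such reads were counted is not given in the sources used here.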
